A study of Mus musculus with 15 samples.

Results

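Transcripts of proteasome subunits and of E2 ubiquitin-conjugating enzymes were examined in mouse cortical RNA, 1 month after a course of high-frequency head impacts (HF-HI) or after Sham handling. Members were the protein-coding transcripts whose gene name starts with Psma to Psmg and a digit, or with Ube2. The table held 72 such transcripts of 63 genes, among 10370 transcripts of 7741 genes. The proteasome family counted 37 transcripts of 36 genes and the E2 family 35 transcripts of 27 genes. Psmb8, Psmb9, Psme1, Psme2 and the Psmg chaperones, and Ube2c, Ube2t, Ube2l6, Ube2j2 and Ube2w, were not analysed here. Every listed transcript had a mean of at least 107.9 normalized counts, so the members are those of moderate or high abundance.

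All mice were male C57BL/6 animals given as 12 weeks of age. The 8 HF-HI libraries came from anesthetized mice that received repeated impacts to the head on consecutive days, and the 7 Sham libraries from mice that were handled and anesthetized alike but not struck. The labels do not say that each library is a separate animal, so p-values measure the spread between these libraries.

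The proteasome is the large protease that destroys proteins tagged with ubiquitin. Its 20S core is a barrel of alpha rings, which gate the entrance, and beta rings, which hold the cutting sites, and its 19S cap binds the tagged protein, removes the tag and unfolds the chain with a ring of ATPases. Upstream, an E1 enzyme activates ubiquitin, an E2 enzyme carries it, and an E3 ligase chooses the protein that receives it. Some E2 enzymes carry a ubiquitin-like protein such as NEDD8 instead, and neurons use the whole system to turn over synaptic proteins.

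Recovered reads in the listed transcripts ranged from 3496103 to 10582858 per library, and size factors spanned 0.818 to 1.47 (Sham) and 0.501 to 1.22 (HF-HI), so that depth and group partly coincided. HF-HI replicate 2 stood apart on the first principal component, at 12.6 against -3.35 to 0.721 in the others. All 6 neuronal markers were listed, with a summed level of 37379 ± 916 normalized counts in Sham libraries and 38782 ± 1550 in HF-HI libraries (SD, n = 7 and 8), of which 4 were above all Sham libraries. The 4 of 6 microglial markers listed summed to 1581 ± 76.4 and 1500 ± 129, with 4 HF-HI libraries below all Sham libraries. All 6 cortical layer markers were listed. Choroid plexus was represented by 1 of 6 markers, Ttr, which reached 6589 to 8663 normalized counts in Sham replicates 1 and 2 and HF-HI replicates 2 and 5 and 21.0 to 176 elsewhere. Of the 6 striatal markers, 5 were listed, with a summed level of 3257 to 5405 normalized counts in Sham libraries and 2494 to 5504 in HF-HI libraries, and the part of these neuronal, microglial, choroid plexus and striatal levels in the results below was not tested.

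The share of members called different between the groups was close to that of all transcripts. On the deposited variance-stabilized (VSD) values, 6 of 72 members (8.33%) had an unadjusted p under 0.05 in limma, against 8.83% of all transcripts. These were 3 of 37 proteasome transcripts, of which 1 was higher and 2 were lower in HF-HI, and 3 of 35 E2 transcripts, of which 1 was higher and 2 were lower. For single directions the share of all transcripts was 4.94% higher and 3.9% lower. With Benjamini-Hochberg adjustment over all transcripts no member passed 0.1 in limma, the smallest adjusted p of a member was 0.409 and that of any transcript was 0.206. With voom weights on the recovered reads of each transcript, 3 proteasome and 2 E2 transcripts had an unadjusted p under 0.05, against 8.47% of all transcripts in that fit. Hereafter a member is called when its unadjusted p is under 0.05, and no called member passed the adjustment.

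The median VSD difference, HF-HI minus Sham, was -0.0064 over the proteasome transcripts and -0.0166 over the E2 transcripts, beside -0.0013 over all transcripts. As log2 ratios of mean normalized counts, the medians were -0.018, -0.053 and -0.0019. Differences lay below 0 for 23 of 37 proteasome and 25 of 35 E2 transcripts, beside 51.5% of all transcripts. No member had groups that did not overlap, as was so for 0.154% of all transcripts. In bulk tissue, fewer cells of a type and less RNA per cell cannot be told apart.

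Reads of all listed transcripts were also summed per gene, because the estimation can divide them between isoforms, and tested with limma voom. Here 5 of 63 member genes were called, against 9.35% of 7870 units tested (genes and unannotated transcripts), and none passed the adjustment. Psmf1 was higher (5.1% of all units were), and Ube2d3, Psmd8 and Psmc6 were among those lower (4.26%). Differences of the proteasome genes ran from -0.12 to 0.53 on the log2 scale with a median of -0.015, and those of the E2 genes had a median of -0.030. The 95% interval of the difference lay within a 1.5-fold change either way for 62 of the 63 genes, as it did for 95.9% of all units. The exception was Psmf1.

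The counts of calls were also taken in fits that allowed for depth, and the cause of any change in them was not tested. With the log2 size factor of each library as a covariate, 0 proteasome and 2 E2 transcripts were called, against 5.14% of all transcripts, and 0 proteasome genes and 1 E2 gene, against 6.18% of all units. With only the 12 libraries of a size factor of at least 0.8, 7 Sham and 5 HF-HI, 0 proteasome and 3 E2 transcripts were called, against 6.33%.

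**Figure D1:**
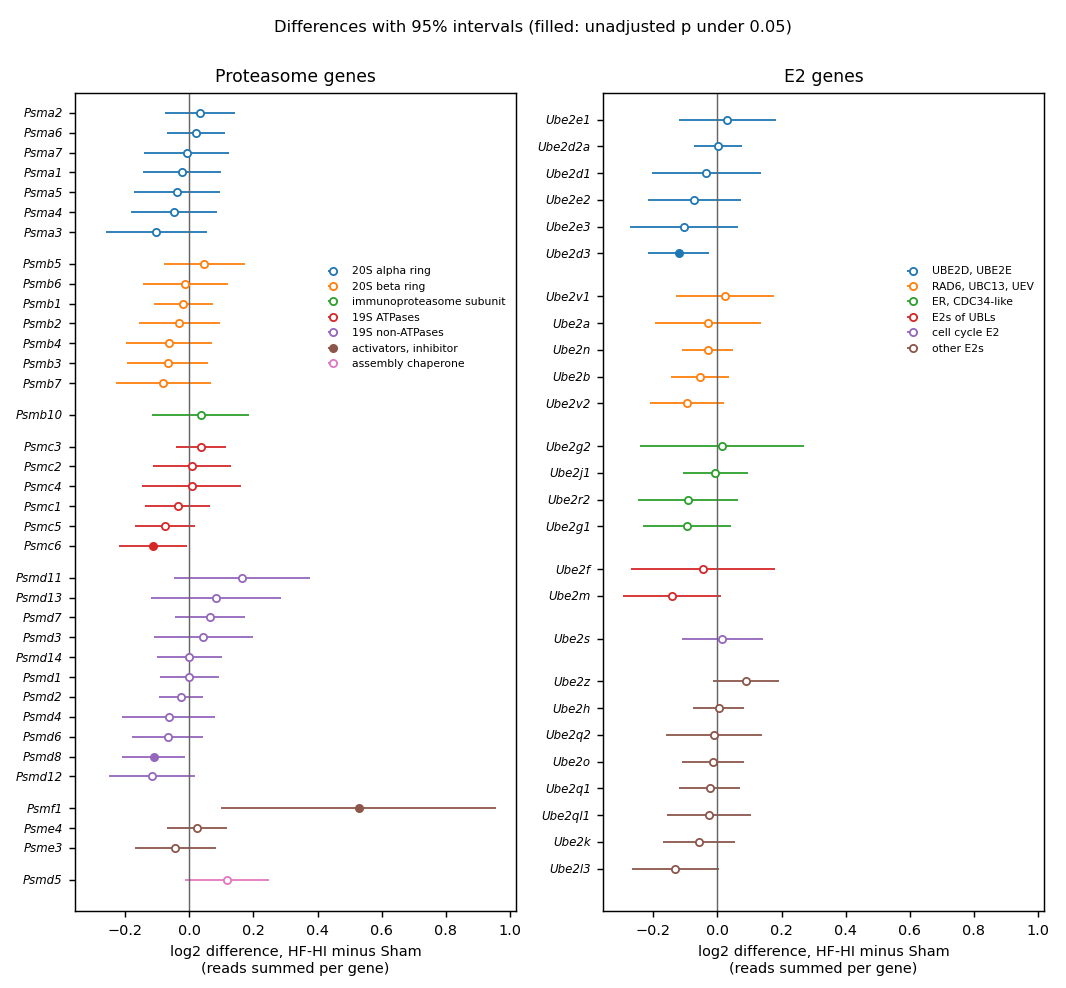
Log2 difference (HF-HI minus Sham, limma voom on reads summed per gene) of proteasome and E2 genes, grouped by role, with 95% intervals; filled points have an unadjusted p under 0.05. Intervals lie between -0.29 and 0.38 except for Psmf1, whose interval runs from 0.10 to 0.96.

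Levels between genes were compared as normalized counts per kilobase of transcript, averaged over the 15 libraries. The 14 genes of the 20S rings had a median of 385 per kilobase and the 17 of the 19S cap one of 254, against 123 over all annotated genes. The beta ring spanned 1.41-fold, from 356 per kilobase for Psmb1 to 503 for Psmb6. The alpha ring spanned 2.79-fold, from Psma2 at 183 to Psma7 at 511. In the 19S cap, Psmc5 was highest among the ATPases at 456 and Psmd2, a scaffold subunit, among the non-ATPases at 415, while Psmd11 was lowest at 73.0. The proteasome gene lowest per kilobase was Psmf1 at 39.1, an inhibitor and not a subunit of the particle. E2 levels were wider, by 27.7-fold, from Ube2f at 31.6 per kilobase to Ube2d3 at 874, with a median of 229. Levels per kilobase depend on the annotated transcript length, including untranslated ends, and were not tested between genes.

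**Figure D2:**
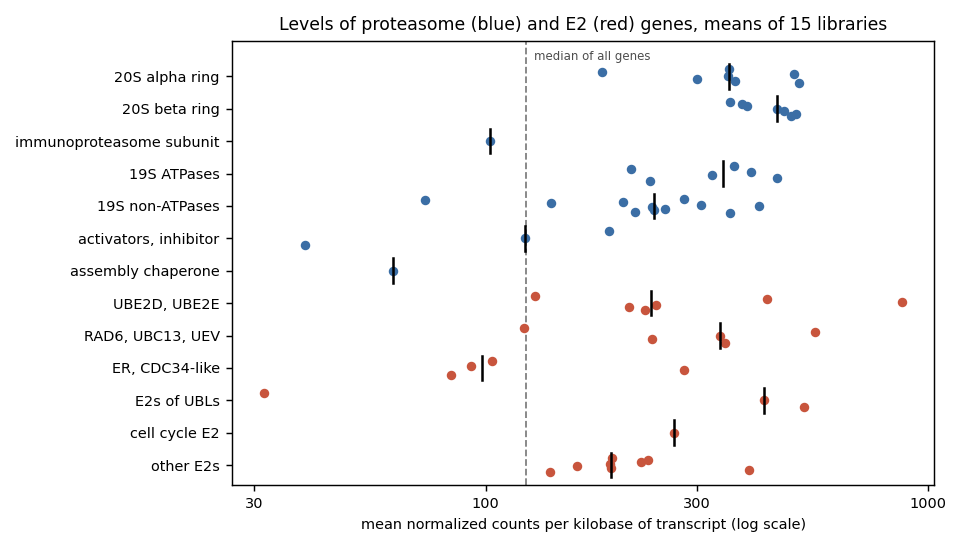
Mean normalized counts per kilobase (log axis) of each member gene over 15 libraries, by role; black bars are medians of each role and the dashed line the median of all genes, 123. Subunits of the 20S beta ring lie within 1.41-fold of each other, and E2 genes range over 27.7-fold.

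None of the 8 alpha ring or 7 beta ring transcripts was called, against 8.83% of all transcripts. Differences were below 0 for 6 of 8 and 6 of 7 of them, beside 51.5% of all transcripts. Their medians were -0.0075 and -0.0116 in VSD. The 3 catalytic subunits differed by 0.05 (Psmb5, chymotrypsin-like site), -0.01 (Psmb6, caspase-like site) and -0.08 (Psmb7, trypsin-like site) on the log2 scale of the gene sums, and all intervals included 0. In the alpha ring the smallest p was that of Psma3-204, with 211, 281 and 350 normalized counts (lowest, median and highest library) in Sham and 71.1, 255 and 362 in HF-HI (limma adjusted p = 0.650). The beta ring transcript of smallest p was Psmb3-201, with 274, 311 and 334 in Sham and 258, 290 and 335 in HF-HI (limma adjusted p = 0.725). Both pairs of groups overlapped over most of their range. Summed over the 14 genes, the 20S rings held 6442 ± 256 normalized counts in Sham libraries and 6293 ± 149 in HF-HI libraries (SD over 7 and 8 libraries), a difference of -2.32%. Psmb10, a catalytic subunit that replaces its constitutive counterpart in the immunoproteasome, had 123, 128 and 143 in Sham and 108, 134 and 152 in HF-HI (limma adjusted p = 0.937).

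In the 19S cap, 1 of 6 ATPases and 1 of 11 non-ATPase subunits were called, both lower. Of all transcripts 8.83% were called, and 3.9% were called lower. Psmc6, an ATPase of the unfolding ring (chr14:45329788-45349705, plus strand, GRCm38), had 523, 550 and 572 normalized counts in Sham libraries and 445, 501 and 578 in HF-HI libraries. Of the 8 HF-HI libraries 6 were below all Sham libraries, but HF-HI replicate 1 was above all of them. The gene difference was -0.11 on the log2 scale (95% interval -0.22 to -0.0085, limma voom adjusted p = 0.496). Psmd8, a lid subunit (chr7:29174188-29180552, minus strand), had 469, 514 and 561 in Sham and 446, 470 and 530 in HF-HI. Here 7 of 8 HF-HI libraries were under the Sham median and 4 under all Sham libraries. The difference was -0.11 (-0.21 to -0.013, limma voom adjusted p = 0.468). With the log2 size factor as a covariate neither gene was called (-0.079 and -0.098), nor without the 4 libraries of high Ttr (-0.064 and -0.079). With 1 library left out in turn, Psmc6 lay between -0.14 and -0.092 and was not called without any of Sham replicates 1, 2, 5 and 6 or HF-HI replicates 2, 5, 6 and 7, and Psmd8 lay between -0.14 and -0.090 and was not called without any of Sham replicates 1 and 6 or HF-HI replicates 2, 5 and 8.

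The remaining cap subunits were not called. Psmd12 and Psmd11, just outside, differed by -0.12 (-0.25 to 0.017) and 0.16 (-0.049 to 0.38) on the log2 scale. Psmd14, the deubiquitinase that cuts the ubiquitin chain off, had a difference near 0 with an interval of -0.10 to 0.10, and Psmd4, a ubiquitin receptor, differed by -0.065 (-0.21 to 0.080). The 17 cap genes together held 8743 ± 207 normalized counts in Sham libraries and 8616 ± 147 in HF-HI libraries (n = 7 and 8), a difference of -1.45%.

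The inhibitor Psmf1 (PI31, which inhibits the isolated 20S core and also helps to move proteasomes along axons; chr2:151715812-151741310, minus strand) was the only proteasome gene called higher. It had 74.7, 111 and 216 normalized counts in Sham libraries and 118, 170 and 235 in HF-HI libraries. All 8 HF-HI libraries were above the Sham median, although Sham replicate 7, at 216, was above 6 of them. The VSD difference was 0.11 ± 0.042 (SE, limma adjusted p = 0.497) and the log2 difference 0.53 (0.10 to 0.96, limma voom adjusted p = 0.427). It was not called with the log2 size factor as a covariate (0.32), without Sham replicate 4 (0.41) or without the 4 libraries of high Ttr (0.48). Its transcript Psmf1-201 was not called in those fits either, nor without Sham replicate 6 (VSD difference 0.091). The activator caps Psme3, the highest of these at 190 per kilobase, and Psme4 differed by -0.044 and 0.023, and the assembly chaperone Psmd5 by 0.12 (-0.014 to 0.25).

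**Figure D3:**
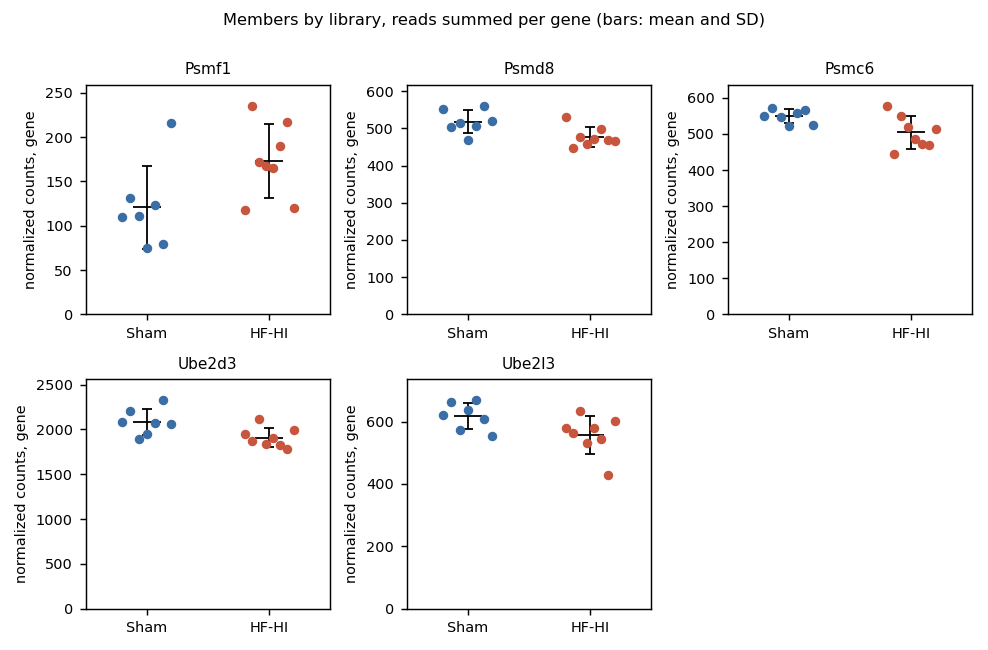
Normalized counts per library, reads summed per gene, for called member genes and for Ube2l3, called as a transcript; points are libraries, bars the mean and SD of 7 Sham and 8 HF-HI libraries, axes start at 0. Psmf1 spreads from 74.7 to 235 and is the only gene shown that is higher in HF-HI, and in every panel the groups overlap.

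Among E2 enzymes, the UBE2D and UBE2E group places ubiquitin for many RING ligases. Ube2d3 was the highest E2 gene per kilobase and was called lower at the gene level. Its gene sums were 1893, 2069 and 2325 normalized counts in Sham libraries and 1779, 1887 and 2111 in HF-HI libraries. In HF-HI, 4 of 8 libraries were below all Sham libraries, and the log2 difference was -0.12 (-0.22 to -0.027, limma voom adjusted p = 0.413). It was not called with the size factor as a covariate (-0.065) or without the 4 libraries of high Ttr (-0.099). Neither of its transcripts was called alone. The transcript of smallest p in the group was Ube2e3-201, with 482, 562 and 580 in Sham and 389, 486 and 605 in HF-HI (limma adjusted p = 0.688), and the close paralogue Ube2d2a differed by 0.0011 (-0.074 to 0.076). The coding sequences of such paralogues are alike, and the estimation could have divided shared reads between them.

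The RAD6, UBC13 and UEV proteins modify histones or build chains used in signalling and repair. They had no called transcript, against 8.83% of all transcripts. All 6 of their VSD differences were below 0, beside 51.5% of all transcripts. These differences include 2 isoforms of Ube2v2, and Ube2v1-202 at -0.0040. Summed per gene, Ube2v1 differed by 0.023 (-0.13 to 0.18). Ube2v2-202 had the smallest p, with 189, 251 and 301 normalized counts in Sham libraries and 172, 229 and 264 in HF-HI libraries (limma adjusted p = 0.725). Ube2b, the highest per kilobase of this group at 555, had 948, 1021 and 1061 in Sham and 820, 986 and 1070 in HF-HI. The E2 enzymes of the endoplasmic reticulum and of CDC34 type had none called of 6 transcripts. Ube2r2, a CDC34-like partner of cullin ligases, had the smallest p (limma adjusted p = 0.743), and Ube2j1, anchored in the endoplasmic reticulum membrane, the highest level at 281 per kilobase. Ube2s, which extends chains for the anaphase-promoting complex, had 294, 334 and 355 in Sham and 296, 325 and 377 in HF-HI.

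Of the other ubiquitin E2 transcripts 1 of 9 was called, against 8.83% of all transcripts. Ube2l3 (UBCH7, a partner of parkin and of HECT ligases; chr16:17152015-17201492, minus strand) had 553, 622 and 669 normalized counts in Sham libraries and 429, 571 and 633 in HF-HI libraries. The VSD difference was -0.056 ± 0.026 (SE, limma adjusted p = 0.561), and the gene difference was not called, at -0.13 (-0.27 to 0.0038). Of the 8 HF-HI libraries 3 were below all Sham libraries. The call was lost in 7 of 12 alternatives other than leaving out 1 library. Among them were log2(normalized count + 1), voom, library weights and leaving out the 4 libraries of high Ttr. With the size factor as a covariate, another of these, the VSD difference was -0.012. With 1 library left out in turn it lay between -0.066 and -0.038, and leaving out any of Sham replicates 1, 2, 4, 5 and 6 ended the call, as did leaving out any of HF-HI replicates 2, 4, 6 and 7. Ube2ql1, the highest of this group per kilobase at 394, differed by -0.026 (-0.16 to 0.11). Together the 27 E2 genes held 18457 ± 458 normalized counts in Sham libraries and 17791 ± 540 in HF-HI libraries (n = 7 and 8), a difference of -3.61%. Below all Sham libraries were 5 HF-HI libraries, replicates 2, 4, 5, 6 and 7, with size factors of 0.650, 0.501, 1.22, 0.813 and 0.585. The other HF-HI replicates, 1, 3 and 8, had size factors of 0.984, 1.16 and 1.19. The lowest Sham sum was that of replicate 3, which also had the lowest Sham size factor, 0.818. The neuronal and microglial marker sums given above had a higher and a lower mean in HF-HI, with overlapping groups. The astrocyte marker sum was also higher, at 37799 ± 1052 in Sham and 38856 ± 1593 in HF-HI. Of its 9 transcripts, however, 4 had a VSD difference above 0 and 5 below 0, with a median of -0.012. Mean sums of oligodendrocyte markers were 29912 and 29956, and those of endothelial markers 898 and 887. The part of depth and of these marker sums in the E2 difference was not tested.

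The E2 enzymes of ubiquitin-like proteins included the member transcript of smallest p. Ube2m, the main NEDD8 E2, which modifies cullins, had the highest level of this group, at 524 per kilobase. It was the only member gene with transcripts of opposite sign of which any was called. The first bases of each coding sequence in GENCODE M21 (GRCm38, minus strand of chromosome 7) are shown because the isoforms start translation at different places, with the start codon in capitals:
Ube2m-201, chr7:13037700-13037729: ATGatcaagctgttctcgctgaagcagcag
Ube2m-208, chr7:13036238-13036267: ATGgtttatcatcccaacattgacctcgag

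Ube2m-201 has 6 exons and 549 coding bases, and Ube2m-208 has 7 exons and 258 coding bases. Ube2m-201 keeps as exon a stretch of 364 bases (chr7:13037706-13038069) that Ube2m-208 splices out, and this stretch holds the start codon of Ube2m-201 shown above. The annotated reading frame of Ube2m-208 opens further downstream.

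Ube2m-201 had 273, 221, 42.8, 200, 413, 175 and 161 normalized counts in Sham replicates 1 to 7. In HF-HI replicates 1 to 8 it had 84.3, 9.23, 78.3, 3.99, 183, 125, 137 and 21.0. All 8 HF-HI libraries were below the Sham median of 200 and 3 were below all Sham libraries, of which Sham replicate 3 was the lowest. The VSD difference was -0.28 ± 0.096 (SE, limma adjusted p = 0.409), and the log2 ratio of mean normalized counts was -1.40. Ube2m-208 had 251, 315 and 396 in Sham and 287, 390 and 486 in HF-HI. The VSD difference of Ube2m-208 was 0.093 ± 0.039 (limma adjusted p = 0.525), and 4 HF-HI libraries were above all Sham libraries.

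Of the reads of both transcripts, Ube2m-208 held 60.9 ± 16.0% in Sham and 83.1 ± 13.4% in HF-HI (SD, n = 7 and 8). The share lay between 40.1% and 90.3% in Sham, with the highest value in Sham replicate 3, and between 64.3% and 98.9% in HF-HI. All 8 HF-HI libraries were above the Sham median of 58.8% and 3 were above all Sham libraries. Summed over its 3 listed transcripts, a retained-intron one included, Ube2m differed by -0.14 (-0.29 to 0.011) and was not called. With the size factor as a covariate neither transcript was called (VSD differences -0.15 and 0.080). Ube2m-201 remained called with every library left out in turn, and Ube2m-208 lay between 0.076 and 0.11 in VSD and was lost in 7 of 15 such fits, without Sham replicates 1, 4 or 5 or HF-HI replicates 2, 3, 6 or 8. Because the isoforms share most of their exons, these shares rest on how the estimation divided shared reads.

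**Figure D4:**
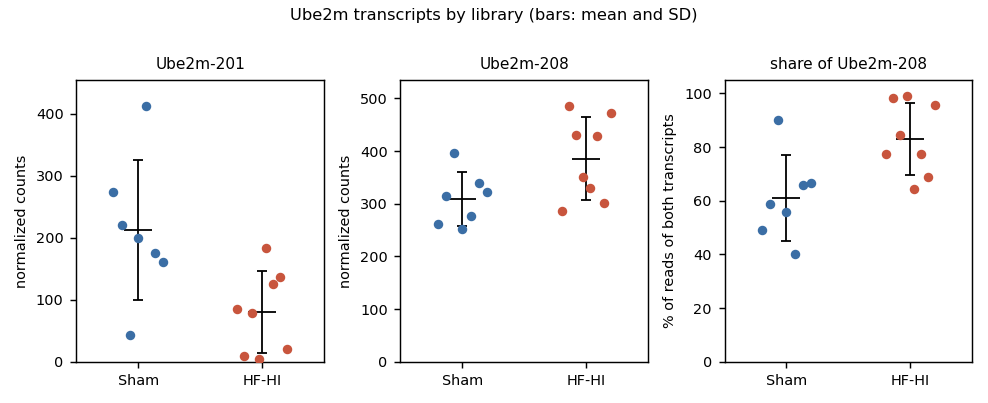
Normalized counts of Ube2m-201 and Ube2m-208, and the share of Ube2m-208 among both in percent, per library; bars are the mean and SD of 7 Sham and 8 HF-HI libraries. The share is 64.3% or more in every HF-HI library and 66.7% or less in 6 of 7 Sham libraries.

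Pairs of isoforms also differed in opposite directions in Ube2g1, Ube2j1 and Ube2q2, with no isoform called. Ube2f, the second NEDD8 E2, differed by -0.046 (-0.27 to 0.18).

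Genes around the families were read from 6 further lists, of ubiquitin precursors, E1 enzymes, proteasome-bound factors, shuttles, HECT ligases and the cullin-RING core. Of their 97 transcripts 6 were called (6.19%), 4 higher and 2 lower, against 8.83% of all transcripts, and none passed the adjustment. By list, 1 of 10 E1 transcripts was higher, 1 of 16 of proteasome-bound factors higher and 1 lower, 1 of 14 of shuttles higher and 1 of 30 of HECT ligases higher. The core of the cullin-RING ligases, the targets of NEDD8, had 0 of 20 transcripts called by limma at an unadjusted p under 0.05. Summed per gene, Cul3 of this core was called lower (4.26% of all units were), at -0.088 (-0.16 to -0.012, limma voom adjusted p = 0.455). The HECT ligase genes Herc1 and Herc2 were called higher (5.1%), at 0.076 (0.011 to 0.14) and 0.076 (0.016 to 0.14). Their limma voom adjusted p were 0.450 and 0.419. The gene-level calls of Cul3, Herc1 and Herc2 were not examined with depth as a covariate or with a library left out. Among transcripts, those higher included Nae1-203, a retained-intron transcript of the NEDD8 E1 gene (limma adjusted p = 0.529), and Herc1-201, of a HECT ligase (limma adjusted p = 0.564). With 1 library left out in turn these calls were lost in 7 and 10 of 15 fits. Of the other alternatives, 3 of 11 ended the call of Nae1-203 (the size factor as a covariate, only libraries of a size factor of at least 0.8, and without the 4 libraries of high Ttr), and 8 of 12, the same 3 among them, ended that of Herc1-201.

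A further 3 called transcripts were of factors that act on the proteasome or on its transcription. Ddi2, the protease that cuts and thereby activates NFE2L1, had 798, 875 and 894 normalized counts in Sham libraries and 884, 970 and 1008 in HF-HI libraries. Of 8 HF-HI libraries 7 were above all Sham libraries. The gene difference was 0.16 (0.075 to 0.24, limma voom adjusted p = 0.202), and Ddi2-201 was called in all 15 fits with a library left out and in all 12 other fits. Nfe2l1-201, of the transcription factor that raises proteasome genes when proteasome activity is low, had 284, 632 and 857 in Sham and 602, 774 and 845 in HF-HI (VSD difference 0.17, limma adjusted p = 0.476). It was called with each library left out in turn, but not with the size factor as a covariate (0.14) or with only libraries of a size factor of at least 0.8 (0.14). Over its 5 listed transcripts Nfe2l1 differed by 0.034 (-0.057 to 0.13). Ecpas-203, of a scaffold bound to the proteasome, had 155, 195 and 231 in Sham and 81.5, 132 and 174 in HF-HI (VSD difference -0.13, limma adjusted p = 0.283), while the gene over 3 transcripts differed by -0.051 (-0.15 to 0.047).

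NFE2L1 binds antioxidant response elements, whose core is written TGACNNNGC. RefSeq promoters (GRCm38.p6, 250 bases before to 50 bases after the start) matched 30 of 36 proteasome genes and 21 of 27 E2 genes. On either strand, the letters TGACNNNGC lay in 5 of 32 proteasome promoters (15.6%) and 6 of 31 E2 promoters (19.4%), against 12.4% of all 32851 promoters. CCAAT, the box of the factor NF-Y, lay in 34.4%, 12.9% and 37.4%. The matches of a catalytic core subunit and of cap subunits named above are shown, with the searched letters in capitals:
Psmb5, chr14:54618024-54618052, on the gene's strand: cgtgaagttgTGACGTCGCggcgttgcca
Psmc6, chr14:45329587-45329615, on the opposite strand: gagcaatgccTGACTTAGCtactggctgg
Psmd12, chr11:107479278-107479299, on the opposite strand: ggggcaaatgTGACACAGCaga

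The letters lie 47 to 39 bases before the start of Psmb5, 227 to 219 before that of Psmc6 and 247 to 239 before that of Psmd12. A match describes the sequence only. The other 2 proteasome matches, of Psmb6 (9 to 1 bases before the start) and Psme4 (on the opposite strand, across the start), are not shown because the shown stretch would run into the transcript. The gene differences of the 3 shown were 0.05, -0.11 and -0.12.

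For genes with 1 listed transcript, proteasome transcripts varied between libraries of a group nearly as much as all annotated transcripts. The median coefficient of variation was 8.02% for proteasome transcripts, 10.7% for E2 transcripts and 11.6% for all annotated transcripts. Among genes with 1 listed transcript the medians were 7.99%, 9.11% and 8.81%, and among genes with several they were 22.7%, 18.3% and 19.97%. Psmd2-201 varied least, at 3.93%, and Ube2m-201 most, at 67.6%. Isoforms of 1 gene share reads, and genes with several listed transcripts made up 15 of 35 E2 transcripts but 2 of 37 proteasome transcripts.

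The libraries were also compared member by member. Within groups, the median Pearson r between pairs of transcripts over the 15 libraries was 0.046 for the proteasome and 0.038 for E2 enzymes, beside -0.0013 and -0.00063 between these members and non-member transcripts. By role it ran from -0.12 for the other ubiquitin E2s to 0.22 for the 6 ATPases of the 19S cap, the highest of 10 roles, and was -0.016 for the 11 non-ATPase subunits of the cap. The libraries share depth and composition, and these correlations are a description. The non-member transcripts most like the summed standardized proteasome level were those of Zc3hc1 (r = 0.883), Pak7, Gigyf2, Fer and Serpini1, and those most like the E2 level were of Mpc1 (r = 0.870), Paip1, Wapl, Nr1d2 and Ppp1cb, each chosen as the highest of all transcripts over 15 libraries.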

How the data were processed

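The authors aligned stranded, ribosome-depleted total RNA reads to mm10 with STAR, estimated reads per transcript by eXpress, and took size factors, Cook's distance filtering and the variance-stabilizing transformation from DESeq2. The annotation release was not given in the sources used here. The values deposited by the authors are variance-stabilized values on the log2 scale, 1 column per library, on which a 2-fold change is worth 0.20 at 100 normalized counts and 0.53 at 1000.

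Inverting the transformation gave whole reads for 100% of values, within 0.1 reads, and the size factors. The table covers only the listed transcripts, so these sums are not whole library depths, and 1 read was worth 0.679 to 1.997 normalized counts, which sets the counting precision. Of 10370 transcripts, 10241 matched GENCODE M21. Transcripts were tested on the deposited values with limma 3.58.1 (R 4.3.3; eBayes with trend, group only, two-sided), adjusted over all rows with the Benjamini-Hochberg method. Gene sums of recovered reads were tested with limma voom, with the size factors. Code was tested on simulated counts.

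The members and lists were chosen with earlier results of these data known. Named were called members and called genes of the further lists, apart from those not reported here. Also named were the highest gene per kilobase and the transcript of smallest p in each role. So were genes with isoforms of opposite sign of which any was called, and the 5 transcripts most like each family. Called items that are not named are not reported here. Psmb5, Psmb6, Psmb7, Psmd4, Psmd14, Psmd12, Psmd11, Psme4, Ube2d2a and the genes at the ends of a range were named in addition, for their role or after their values were seen. Alternatives changed the prior, scaling, log scale, filter, library weights, transcript choice, depth covariate and replicate block, and left out each library. 2 more were chosen after seeing the data, namely only libraries with a size factor of at least 0.8, and only those without high Ttr.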

Additional observations from a re-analysis of the deposited data

Results flagged for a closer look

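The inhibitor Psmf1-201 had 216.2 normalized counts in Sham replicate 7, far above the next highest Sham library at 130.9. It was the only value of its kind among 34 groups of libraries examined, where chance gives about 1 in 20. Psmf1-201 was called without this library, and was not called without Sham replicate 4 or without Sham replicate 6.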

How the results depend on the processing

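No member passed the adjusted threshold in the reported limma fits, and the counts below are at an unadjusted p under 0.05. The proteasome transcripts called, 3 in the reported fit, were 0 with the log2 size factor as a covariate (5.14% of all transcripts called), 0 with only the libraries of a size factor of at least 0.8 (6.33%) and 1 without the 4 libraries of high Ttr (6.53%). Proteasome genes, 3 in the reported fit, were 0, 0 and 1 in the same settings (6.18%, 6.51% and 7.01% of all units called) and 1 with library sums in place of size factors (9.54%). E2 genes, 2 in the reported fit, were 1, 1 and 0, and E2 transcripts 2, 3 and 2. Leaving out each library in turn gave 0 to 5 proteasome transcripts (0 without Sham replicate 6, 5 without HF-HI replicate 8), 1 to 4 E2 transcripts (1 in 4 fits, without Sham replicates 4 and 5 and without HF-HI replicates 2 and 6), 1 to 5 proteasome genes (1 in 3 fits, without Sham replicate 6 and without HF-HI replicates 2 and 5; 5 without HF-HI replicate 3) and 2 to 6 E2 genes (6 without Sham replicate 3), while 7.21% to 9.52% of all transcripts and 7.85% to 10.4% of all units were called. The median difference of the proteasome transcripts was -0.022 on log2(normalized count + 1) and -0.022 with a pseudocount of 10, that of the E2 transcripts -0.056 and -0.054, and -0.048 with voom, since the VSD scale compresses differences. The proteasome median was 0.00098 without the 4 libraries of high Ttr, and ranged from -0.012 to 0.000037 with a library left out, and that of E2 from -0.023 to -0.011. Same-numbered libraries correlated at -0.138 to 0.0905, which cannot show whether the numbers pair them, and the labels do not say. With the replicate block 5 proteasome transcripts, 3 E2 transcripts, 5 proteasome genes and 4 E2 genes were called, against 8.59% of all transcripts and 8.92% of all units. No called member and no called transcript of the further lists reversed its direction in any of these fits. Gene-level calls of the further lists were not followed through them, and the cause of lost calls was not tested. Counting precision was coarse for Ube2m-201 in HF-HI replicate 4, at 3.99 normalized counts where 1 read was worth 1.997.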
